A study of Mus musculus with 27 samples.

Results

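The HGF and EGF family growth signals are described here as 10 genes, chosen by name from the 54532 genes of the deposited table, by a rule that holds no measured value. They are the ligands Hgf, Tgfa, Hbegf, Ereg, Areg and Tgfb1, the receptors Met, Egfr and Erbb3, and Hgfac, whose product activates HGF. All 10 were in the table, and 9 had enough counts to be tested. Areg did not. Levels are given as FPKM (fragments scaled to gene length and here to a size factor of each library), which can be compared between genes of different length.

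Liver RNA of wild-type C57/BL6J mice was sequenced in 27 libraries from 5 groups. The controls had a sham operation, at a time after surgery that the labels do not give (sham, n = 5). Livers cut back by a 70% partial hepatectomy were taken after 24 h (PHx24, n = 7) or 48 h (PHx48, n = 7). Mice of PHx24_ETO (n = 4) also received etomoxir at 12.5 mg/kg into the peritoneum 4 h ahead of surgery, and mice of PHx48_ETO (n = 4) had this dose and another 24 h after surgery. Etomoxir blocks carnitine palmitoyltransferase 1 and with it the entry of long-chain fatty acids into mitochondria. The labels name no vehicle for the other groups, give no age or sex, and do not say whether the libraries come from separate animals. The p-values therefore reflect how far these libraries vary, which may be technical.

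HGF is secreted in the liver mainly by stellate cells and other cells that are not hepatocytes, as a single chain without activity. Proteases such as the HGF activator, made by hepatocytes, cut it into the form that activates its receptor MET on hepatocytes. TGF-alpha, heparin-binding EGF, epiregulin and amphiregulin are made as membrane-bound precursors, are released by shedding proteases, and bind EGFR, the most abundant receptor of its family in hepatocytes, which pairs with ERBB3. Both receptors are known for driving hepatocyte division after resection, whereas TGF-beta 1, a ligand of another family, is known for restraining it.

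The libraries held 14903757 to 18446372 counts, and albumin mRNA took 2.99% to 8.1% of them. The summed FPKM of 10 hepatocyte markers was 32957 to 71007 in sham, 27477 to 37776 in PHx24 and 32534 to 45635 in PHx48, and none of the 10 was at 0. Skeletal muscle or pancreatic RNA was highest in 4 libraries. The summed FPKM of 10 skeletal muscle markers reached 4597 in sham, 1794 in PHx24 and 555 in PHx48, in sham 1, PHx24 1 and PHx48 3, against group medians of 3.29, 0.90 and 1.01, and that of 10 pancreatic markers reached 929 in sham 2. Where a member's call changes without these 4 libraries, this is stated. Smaller amounts stood out elsewhere, as in PHx48_ETO 4 with 82.5 FPKM of muscle markers against 0.455 to 11.1 in the rest of its group. Since this is whole tissue, fewer cells of a type and less RNA per cell cannot be told apart.

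In sham liver the transcripts of the member receptors Egfr, Erbb3 and Met had higher mean levels than those of the member ligands. Egfr, at 75.7 ± 24.7 FPKM (SD, n = 5), and Hgfac, at 73.3 ± 10.3, had the highest levels, followed by Erbb3 at 20.9 ± 5.25 and Met at 8.21 ± 1.78. The ligands Tgfa (3.61 ± 0.52), Tgfb1 (1.76 ± 0.27), Hgf (0.496 ± 0.106), Hbegf (0.421 ± 0.299) and Ereg (0.041 ± 0.044) lay below them. Areg had 0, 26, 2, 0 and 0 counts in the 5 sham libraries.

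After resection, the ligand transcripts that changed were higher and the receptor and activator transcripts that changed were lower. At 24 h Hgf and Tgfa rose, and Hgfac and Erbb3 fell. At 48 h Hgf was higher than in sham, and Hgfac, Egfr and Erbb3 were lower. Ereg was called higher at both times, but it passed the count filter only through resected livers. Of the 9 members tested, 5 were called in PHx24 against sham, where 30.6% of all 15473 genes tested were called, and 5 in PHx48 against sham, where 32.3% were. A call is an adjusted p under 0.05 in edgeR's quasi-likelihood test. In direction, 3 rose and 2 fell at 24 h, beside 15.0% and 15.6% of all genes, and 2 rose and 3 fell at 48 h, beside 16.1% and 16.2%. With Ereg set aside, 4 of 8 were called at 24 h (2 higher, 2 lower) and 4 of 8 at 48 h (1 higher, 3 lower), and the median log2 fold change of the 8 was 0.046 and 0.042, against -0.05 and -0.04 over all genes. Without any 1 library the count over 9 was 4 or 5 at 24 h and 2 to 4 at 48 h, where sham 2, 3 and 5 and PHx48 3, 4, 5, 6 and 7 each took it to 3 or 2, and without the 4 libraries named above it was 6 and 3. Both comparisons use the same sham libraries.

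**Figure D1:**
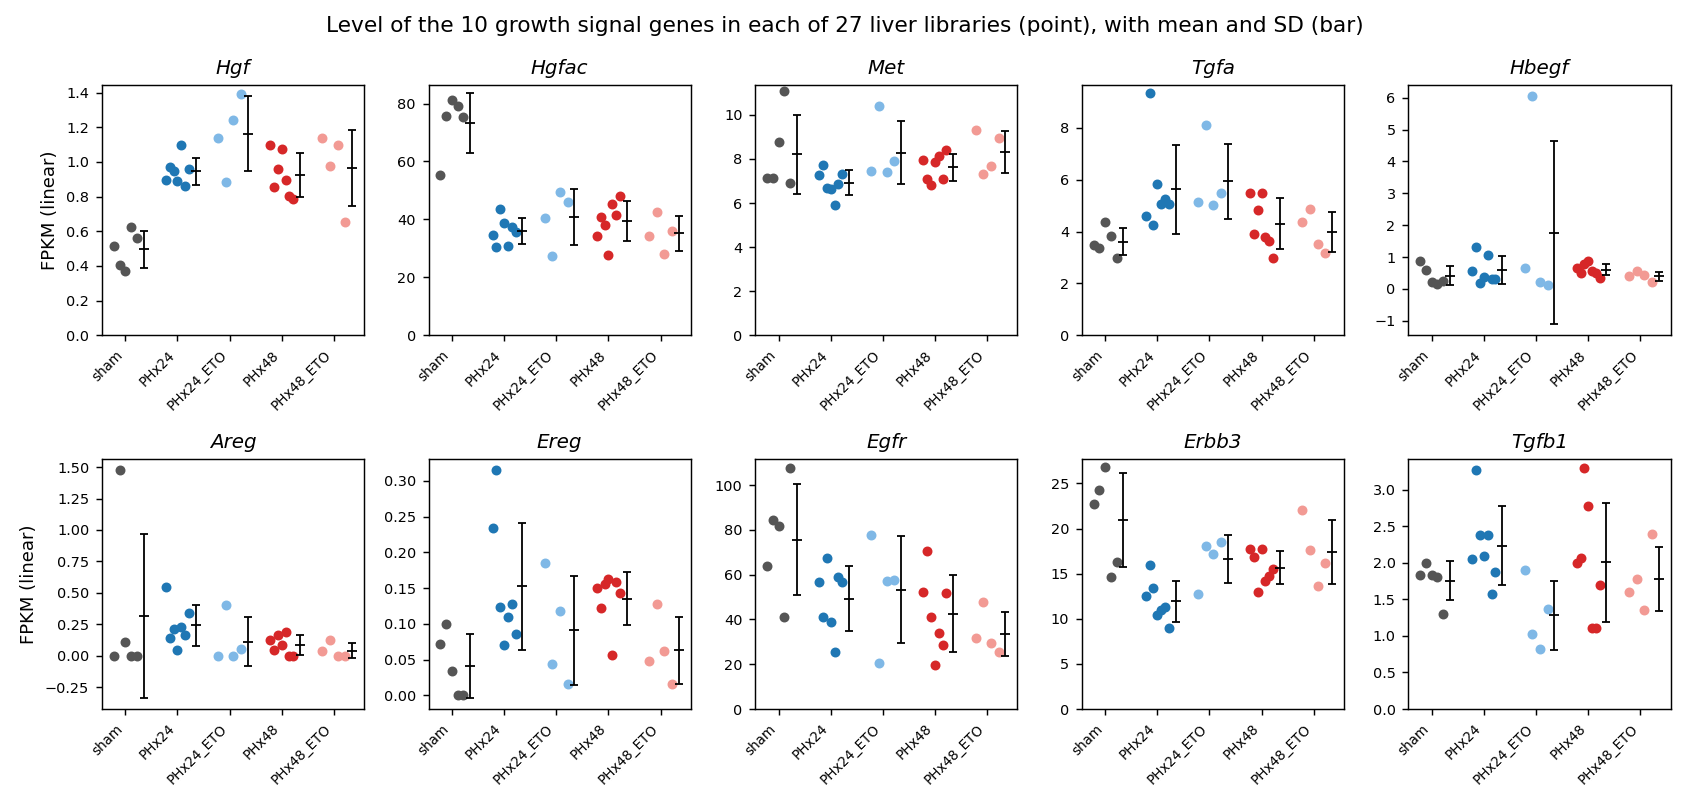
Levels of the 10 genes in each library, in FPKM on a linear axis, by group (sham n = 5, PHx24 n = 7, PHx24_ETO n = 4, PHx48 n = 7, PHx48_ETO n = 4); each point is 1 library and the bar is the group mean with its SD. For Hgf and Hgfac no library of PHx24 or PHx48 reaches the sham range, and in Hbegf 1 PHx24_ETO library stands at 6.04 FPKM.

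Hgf itself (ENSMUSG00000028864, GRCm38 chromosome 5, 16553495 to 16620152, plus strand) almost doubled after resection. Its level was 0.518, 0.403, 0.373, 0.623 and 0.562 FPKM in the 5 sham libraries. In PHx24 it ran from 0.861 over a median of 0.946 to 1.10 FPKM, and in PHx48 from 0.784 over 0.898 to 1.10. Every resected library of these 2 groups lay above every sham library. The log2 fold change was 0.93 at 24 h (SE 0.16, edgeR adjusted p = 6.61e-05, higher in 7 of 7 libraries) and 0.90 at 48 h (SE 0.16, edgeR adjusted p = 7.51e-05, 7 of 7). These calls held in all 21 alternatives run for each comparison. With etomoxir the 4 livers at 24 h had 1.14, 0.883, 1.24 and 1.39 FPKM and the 4 at 48 h had 1.14, 0.978, 1.10 and 0.652. The etomoxir groups overlapped with the untreated resected livers at both times, and all 8 were above sham. In order of the mean, PHx24_ETO (1.16 FPKM) came first, then PHx48_ETO (0.966), PHx24 (0.946), PHx48 (0.925) and sham (0.496), and only the last step, from PHx48 to sham, had no overlap between neighbours. The exons of Hgf overlap those of the gene model Gm43489, which had 0 to 14 counts.

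The markers of cells known for making Hgf are given beside it. Of 11 stellate cell and fibroblast markers, 0 were called higher and 2 lower at 24 h, and 1 higher and 2 lower at 48 h. Their summed FPKM ran from 83.2 to 241 in sham, from 59.2 to 160 in PHx24 and from 65.6 to 128 in PHx48, and none of the 11 was at 0. The highest sums were those of sham 1, PHx24 1 and PHx48 3, the libraries with most muscle RNA. The next highest were 109 in sham, 90.7 in PHx24 and 95.1 in PHx48. Of 10 sinusoidal endothelial markers, 0 rose and 3 fell at 24 h, and 0 rose and 6 fell at 48 h. Beside both lists, 15.0% of all genes were called higher and 15.6% lower at 24 h, and 16.1% and 16.2% at 48 h. The part of the cells these markers stand for in the rise of Hgf was not tested.

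Hgfac, the HGF activator (ENSMUSG00000029102, GRCm38 chromosome 5, 35041509 to 35048461, plus strand), moved the other way. Sham livers had 55.5, 75.6, 81.1, 79.1 and 75.5 FPKM. PHx24 livers ran from 30.5 over a median of 35.5 to 43.7, and PHx48 livers from 27.7 over 40.9 to 48.2. Again no resected library reached the lowest sham value. The transcript fell by 1.04 on the log2 scale at 24 h (SE 0.14, edgeR adjusted p = 6.12e-06, lower in 7 of 7 libraries) and by 0.90 at 48 h (SE 0.14, edgeR adjusted p = 2.24e-05, 7 of 7), which held in all 21 alternatives of each comparison. Etomoxir livers had 40.4, 27.3, 49.5 and 46.2 FPKM at 24 h and 34.2, 42.5, 28.0 and 36 at 48 h, overlapping with the untreated resected livers. Sham had the highest mean, without overlap with the next group, and the ranges of the 4 resected groups overlapped from each to the next. Hepatocytes are the cells that make Hgfac and hold most Egfr and Erbb3. Of 10 hepatocyte markers, 4 were called lower and 0 higher at 24 h (median log2 fold change -0.018), and 3 lower and 0 higher at 48 h (-0.25). Over all genes 15.6% and 16.2% were called lower. The part of hepatocytes in the levels of Hgfac, Egfr and Erbb3 was not tested. Hgf and Hgfac were the 2 of 9 tested members whose resected and sham libraries did not overlap, at 24 h and at 48 h. Over all genes 15.3% and 17.5% did not overlap.

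Since Hgf and Hgfac moved in opposite directions without overlap with sham, the 250 bases before their start sites are shown, from RefSeq on GRCm38.p6, plus strand, 5′ to 3′. The Hgf window is chr5:16553245-16553494 and the Hgfac window chr5:35041259-35041508. Capitals mark matches, on either strand, to 8 short motifs: AP-1 (TGANTCA), CRE (TGACGTCA), C/EBP (TTGCNNAA), STAT (TTCNNNGAA), the GC box (GGGCGG), a part of the HNF1 site (GTTAAT), the TATA box (TATAAA) and the E-box (CACGTG).
Hgf: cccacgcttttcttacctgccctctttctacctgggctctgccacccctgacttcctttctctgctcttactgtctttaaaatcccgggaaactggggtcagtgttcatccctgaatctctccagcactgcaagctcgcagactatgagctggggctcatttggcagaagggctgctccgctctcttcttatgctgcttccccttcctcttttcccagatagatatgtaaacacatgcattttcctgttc
Hgfac: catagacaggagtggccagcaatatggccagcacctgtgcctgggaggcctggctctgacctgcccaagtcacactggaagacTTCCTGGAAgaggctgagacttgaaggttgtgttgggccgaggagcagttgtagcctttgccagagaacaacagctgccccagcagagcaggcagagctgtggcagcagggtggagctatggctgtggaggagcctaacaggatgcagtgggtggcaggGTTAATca
The Hgfac window holds a STAT match that begins 167 bases before the start and the HNF1 part at 8 bases before it. Of 32851 RefSeq windows of this length, 7.02% hold a STAT match and 6.43% the HNF1 part. The Hgf window shown holds none of the 8 motifs, and a second RefSeq start of Hgf, at 16553901, has the HNF1 part 94 bases before it. These are matches of letters and not measured binding.

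Met, the HGF receptor (ENSMUSG00000009376, GRCm38 chromosome 6, 17463800 to 17573980, plus strand), passed the test at neither time. Sham livers had 7.16, 7.11, 8.77, 11.1 and 6.89 FPKM, PHx24 livers ran from 5.93 over a median of 6.86 to 7.73, and PHx48 livers from 6.80 over 7.86 to 8.42. The ranges overlapped. The log2 fold change was -0.25 at 24 h (SE 0.11, edgeR adjusted p = 0.0976) and -0.11 at 48 h (SE 0.11, edgeR adjusted p = 0.491). The 24 h difference passed the threshold without the 4 libraries named above (-0.36, edgeR adjusted p = 0.0488) and without sham 5 (-0.31, edgeR adjusted p = 0.0491). The 48 h difference was positive without sham 4 (0.036) and when counts were scaled to library totals (0.14).

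A list of 16 genes of HGF activation and its inhibitors, of which Hgfac is one, had 15 tested. At 24 h 2 rose and 8 fell (median log2 fold change -0.35), and at 48 h 1 rose and 8 fell (-0.40), where 15.6% and 16.2% of all genes fell. With the 4 libraries left out, 6 fell at 24 h and 5 at 48 h. Klkb1, plasma prekallikrein, a protease that can cut HGF, went from 47.8 ± 6.46 FPKM in sham (n = 5) to 20.9 ± 2.46 in PHx24 (n = 7) and 16.4 ± 3.05 in PHx48 (n = 7), a fall by 1.55 at 48 h (SE 0.22, edgeR adjusted p = 5.71e-06). F12, coagulation factor XII, was also lower at 48 h than at 24 h (-0.27, SE 0.08, edgeR adjusted p = 0.0269), a call lost without PHx24 3 or PHx48 5 (adjusted p up to 0.0533) and under scaling to library totals (-0.16, edgeR adjusted p = 0.0687).

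Plaur, the urokinase receptor, rose by 1.98 at 24 h (SE 0.68, edgeR adjusted p = 0.0285), a call lost without PHx24 2, sham 4 or sham 5 (1.47 to 1.82, adjusted p up to 0.0879). Spint1, an inhibitor of HGF activator, and St14, the protease matriptase, were called lower, but the difference rested on 1 sham library. Spint1 had 6.56 FPKM and St14 had 2.28 FPKM in sham 2, against sham medians of 0.273 and 0.126. Without sham 2 the log2 fold change of Spint1 was 0.21 in place of -2.31 at 24 h and -0.30 in place of -2.82 at 48 h, and that of St14 at 48 h was 0.39 in place of -1.91, with edgeR adjusted p from 0.524 to 0.783. Markers of monocytes and neutrophils, among the cells known to express Plaur, moved with the rise of Plaur. Of 8 tested, 4 were called higher and 0 lower at 24 h, beside 15.0% and 15.6% of all genes. The summed FPKM of the 10 listed was 2.05 to 7.81 in sham and 5.86 to 15.9 in PHx24 apart from PHx24 2. That library had 97.9 and is also the library with the highest Tgfa. It had the highest sum of 8 cholangiocyte markers in PHx24 as well, 100 FPKM against a group median of 43.6. Of 7 cholangiocyte markers tested, 1 was called higher and 2 lower at 24 h, beside the same shares of all genes. The part of any of these cell types in the levels of Plaur and Tgfa was not tested.

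Among the EGFR ligand transcripts in these livers, that of Tgfa was the most abundant. It made up a median of 77.7% of the summed FPKM of the 7 EGFR ligand genes (Egf, Tgfa, Areg, Ereg, Hbegf, Btc and Epgn) in sham, 77.3% in PHx24 and 70.5% in PHx48. Tgfa (ENSMUSG00000029999, GRCm38 chromosome 6, 86195223 to 86275719, plus strand) had 3.49, 3.37, 4.37, 3.83 and 2.98 FPKM in sham. In PHx24 it ran from 4.26 over a median of 5.07 to 9.33, so that the lowest resected and the highest sham library just crossed, and in PHx48 from 2.99 over 3.91 to 5.49. It rose by 0.64 at 24 h (SE 0.19, edgeR adjusted p = 0.011), which held in all 21 alternatives. At 48 h the log2 fold change was 0.25 (SE 0.19, edgeR adjusted p = 0.31), and from 24 h to 48 h it was -0.38 (SE 0.17, edgeR adjusted p = 0.161). The highest value, 9.33, was that of PHx24 2. Etomoxir livers had 5.14, 8.10, 5.02 and 5.47 FPKM at 24 h and 4.35, 4.85, 3.52 and 3.16 at 48 h. They overlapped with the untreated livers of the same time. The exons of Tgfa overlap those of Gm43917, which had 0 to 4 counts.

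Ereg, epiregulin (ENSMUSG00000029377, GRCm38 chromosome 5, 91074622 to 91093646, plus strand), rested on very few reads. Its counts were 5, 6, 2, 0 and 0 in sham, 5 to 22 in PHx24 and 4 to 13 in PHx48, and no sham library reached 10 counts, so the gene passed the count filter only through resected livers. In FPKM, sham had 0.0716, 0.10, 0.0333, 0 and 0, PHx24 ran from 0.0700 over 0.124 to 0.315, and PHx48 from 0.0569 over 0.150 to 0.162. The groups overlapped. The log2 fold change was 1.8 at 24 h (SE 0.63, edgeR adjusted p = 0.0308) and 1.63 at 48 h (SE 0.63, edgeR adjusted p = 0.0471). The 24 h call was lost in 5 of 19 alternatives, among them those without PHx24 2, sham 3, sham 4 or sham 5 (1.5 to 1.72, adjusted p up to 0.072). The 48 h call was lost in 11 of 19, among them those without sham 3, 4 or 5 or any PHx48 library but number 5 (1.33 to 1.66, adjusted p up to 0.104). The estimates were 3.38 and 3.30 without the 4 libraries with RNA of other tissues. Etomoxir livers had 13, 3, 8 and 1 counts at 24 h and 4, 10, 4 and 1 at 48 h. The exons of Ereg overlap those of the antisense gene model Gm19610, which had 0 to 3 counts.

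Hbegf, heparin-binding EGF (ENSMUSG00000024486, GRCm38 chromosome 18), varied widely within groups. Sham livers had 0.871, 0.581, 0.232, 0.163 and 0.257 FPKM, PHx24 livers ran from 0.189 over a median of 0.365 to 1.32, and PHx48 livers from 0.350 over 0.569 to 0.868. The groups overlapped, with log2 fold changes of 0.46 at 24 h (SE 0.68, edgeR adjusted p = 0.642) and 0.51 at 48 h (SE 0.68, edgeR adjusted p = 0.599). PHx48_ETO livers had 0.391, 0.553, 0.436 and 0.210 FPKM.

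Areg, amphiregulin (ENSMUSG00000029378, GRCm38 chromosome 5, 91139599 to 91148432, plus strand), was near the limit of detection. Its counts were 11, 3, 4, 1, 5, 3 and 7 in PHx24, 3, 1, 4, 2, 4, 0 and 0 in PHx48, 0, 8, 0 and 1 in PHx24_ETO and 1, 3, 0 and 0 in PHx48_ETO. All 7 PHx24 libraries had at least 1 count, while 3 of 5 sham libraries had none and sham 2 had 26. By an exact two-sided permutation test on log2(FPKM + 1), adjusted over its 5 comparisons, no difference passed (adjusted p from 0.143 to 0.98). The smallest p was that of PHx48 against PHx24 (-0.18, exact p = 0.0286, adjusted p = 0.143).

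Ereg, Areg and 2 further EGF family genes, Epgn and Btc, lie side by side on chromosome 5, between 91027464 and 91402994. Within that cluster Ereg was called, Areg and Epgn had too few counts to be tested, and Btc, betacellulin, was not called at 24 h (log2 fold change 0.50, edgeR adjusted p = 0.427) or 48 h (1.07, edgeR adjusted p = 0.0765).

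Of the 11 EGF family ligand genes, 7 were tested: Tgfa, Ereg, Hbegf, Btc, Egf and the neuregulins Nrg1 and Nrg4. At 24 h 4 rose and 0 fell (Tgfa, Ereg, Nrg1 and Nrg4), where 15.0% of all genes rose, with a median log2 fold change of 0.64. At 48 h 3 rose and 0 fell (Ereg, Nrg1 and Nrg4), where 16.1% of all genes rose, with a median of 1.07. Ereg and Nrg1 had under 10 counts in every sham library and passed the count filter only through resected livers, so these counts and medians are a description. NRG1 binds ERBB3 and ERBB4 and NRG4 binds ERBB4, and neither binds EGFR. Nrg1 had 1 to 7 counts in sham, 5 to 74 in PHx24 and 33 to 149 in PHx48. Its level was 0.0265 ± 0.0192 FPKM in sham, 0.216 ± 0.162 in PHx24 and 0.475 ± 0.211 in PHx48, and it rose by 3.02 (SE 0.69, edgeR adjusted p = 0.00157) and 4.16 (SE 0.70, edgeR adjusted p = 5.7e-05). Nrg4 went from 0.646 ± 0.076 FPKM to 1.41 ± 0.383 and 1.51 ± 0.238, rises of 1.12 (SE 0.35, edgeR adjusted p = 0.0171) and 1.22 (SE 0.35, edgeR adjusted p = 0.00936). For Nrg4 the ranges of sham (0.571 to 0.741 FPKM) and PHx24 (0.927 to 2.01) did not overlap, yet without the 4 libraries neither call held (1.15 and 1.15, adjusted p = 0.0702 and 0.069). In limma on log2(FPKM + 1), a scale that understates low genes, the 24 h calls of Nrg1 and Nrg4 were lost (limma adjusted p = 0.11 and 0.0898). Without the 4 libraries 3 of the 7 ligands rose at 24 h and 2 at 48 h. The exons of Nrg4 overlap those of Fbxo22 and Gm15625, and the counting is not stated to use strand.

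Of the receptors of these ligands, Erbb3 and Erbb4 fell at 24 h in all alternatives run, while the calls of Egfr and Erbb3 at 48 h depended on single libraries. Egfr (ENSMUSG00000020122, GRCm38 chromosome 11, 16752203 to 16918158, plus strand) had 63.9, 84.3, 81.5, 41.1 and 107 FPKM in sham. PHx24 livers ran from 25.4 over a median of 56.7 to 67.4, and PHx48 livers from 19.8 over 40.9 to 70.5. The groups overlapped, through sham 1 and sham 4. The log2 fold change was -0.62 at 24 h (SE 0.30, edgeR adjusted p = 0.118) and -0.83 at 48 h (SE 0.30, edgeR adjusted p = 0.0351). The 48 h call was lost in 10 of 21 alternatives, among them those without sham 2, 3 or 5 or PHx48 3, 4, 5 or 6 (-0.82 to -0.68, adjusted p up to 0.106). It was also lost without the 4 libraries with RNA of other tissues and under scaling to library totals. Over all 21 alternatives the log2 fold change ran from -1.0 to -0.58. Etomoxir livers had 77.6, 20.6, 57.2 and 57.8 FPKM at 24 h and 31.7, 47.8, 29.5 and 25.6 at 48 h. Sham had the highest mean and PHx48_ETO the lowest (33.6 ± 9.79 FPKM, n = 4), and every group overlapped with the next in that order.

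The 250 bases before the Egfr start (chr11:16751953-16752202) and the Tgfa start (chr6:86194972-86195221) are given for the receptor and its ligand with the most abundant transcript. They are again from RefSeq on GRCm38.p6, plus strand, with matches to the same 8 motifs in capitals.
Egfr: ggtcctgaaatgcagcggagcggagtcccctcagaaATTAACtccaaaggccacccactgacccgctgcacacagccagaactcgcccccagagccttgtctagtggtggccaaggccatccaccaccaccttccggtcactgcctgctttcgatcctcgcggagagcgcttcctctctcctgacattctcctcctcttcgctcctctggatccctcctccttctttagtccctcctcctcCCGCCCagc
Tgfa: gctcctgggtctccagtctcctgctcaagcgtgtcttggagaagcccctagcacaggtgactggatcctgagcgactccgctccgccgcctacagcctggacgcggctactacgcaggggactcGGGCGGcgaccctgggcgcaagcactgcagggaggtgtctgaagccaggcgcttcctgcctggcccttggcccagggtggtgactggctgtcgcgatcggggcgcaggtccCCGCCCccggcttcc
Both windows hold the GC box, at 9 bases before the start in Egfr and at 126 and 15 bases in Tgfa, as 32.7% of all 32851 windows do. The Egfr window also holds the HNF1 part, on the minus strand, 214 bases before the start. G and C made up 60.8% of the Egfr window and 69.2% of that of Tgfa, against 50.8% for Hgf, 58.4% for Hgfac and a median of 52.4% over all windows.

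Erbb3 (ENSMUSG00000018166, GRCm38 chromosome 10, 128567523 to 128589652, minus strand), the partner receptor that binds neuregulins, was lowest at 24 h. Sham livers had 22.7, 24.2, 26.9, 14.6 and 16.3 FPKM. PHx24 livers ran from 8.97 over a median of 11.3 to 16.0, and PHx48 livers from 12.9 over 15.5 to 17.7. Sham 4 lay within the PHx24 range, and sham 4 and sham 5 within the PHx48 range. Erbb3 fell by 0.82 at 24 h (SE 0.15, edgeR adjusted p = 0.000218), a call that held in all 21 alternatives, and by 0.42 at 48 h (SE 0.15, edgeR adjusted p = 0.0379). The 48 h call was lost in 13 of 21 alternatives, among them those without sham 1, 2 or 3 or PHx48 3, 5, 6 or 7 (-0.41 to -0.31, adjusted p up to 0.142), those scaled to library totals (-0.20) and those without the 4 libraries (-0.25). From 24 h to 48 h the log2 fold change was 0.40 (SE 0.14, edgeR adjusted p = 0.0775), and it passed the threshold without PHx24 2 (0.48, edgeR adjusted p = 0.0329). In order of the mean, sham came first, then PHx48_ETO (17.4 FPKM), PHx24_ETO (16.6), PHx48 (15.7) and PHx24 (11.9), each overlapping with the next.

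Of the other receptors of the family, Erbb4 fell by 1.72 at 24 h (SE 0.41, edgeR adjusted p = 0.00227), from 0.260 ± 0.117 FPKM in sham to 0.0792 ± 0.0360 in PHx24, and was at 0.168 ± 0.0837 in PHx48. Erbb2 was called lower at 24 h (-1.23, SE 0.43, edgeR adjusted p = 0.0309), but sham 2 alone had 1.60 FPKM against a sham median of 0.385, and without it the value was -0.34 (edgeR adjusted p = 0.51). Of the 4 receptor genes 0 rose and 3 fell at 24 h, where 15.6% of all genes fell, and 0 rose and 2 fell at 48 h, where 16.2% did. When the 4 libraries were left out, 2 fell at 24 h and 0 at 48 h.

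Tgfb1 (ENSMUSG00000002603, GRCm38 chromosome 7, 25687002 to 25705077, plus strand) had 1.84, 2.0, 1.84, 1.81 and 1.30 FPKM in sham. PHx24 livers ran from 1.57 over a median of 2.10 to 3.27, and PHx48 livers from 1.11 over 1.99 to 3.30. The groups overlapped, with log2 fold changes of 0.34 at 24 h (SE 0.25, edgeR adjusted p = 0.313) and 0.19 at 48 h (SE 0.25, edgeR adjusted p = 0.583).

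**Figure D2:**
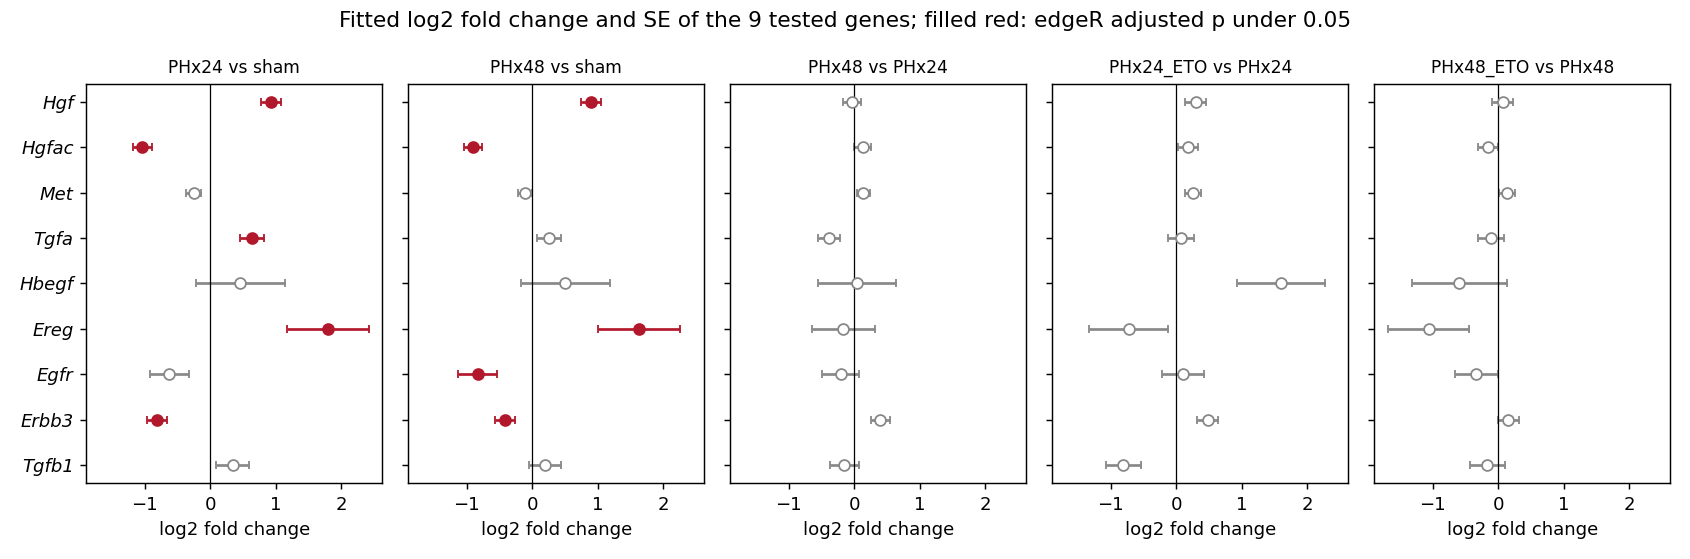
Log2 fold changes of the 9 tested genes in the 5 comparisons, fitted by edgeR, with bars of 1 SE; filled red points have an adjusted p under 0.05. Filled points occur only against sham, with Hgf at 0.93 and 0.90 and Hgfac at -1.04 and -0.90, and Ereg and Hbegf have the widest bars.

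Between 24 h and 48 h after resection without etomoxir no member passed the test. By edgeR 0 of 9 were called, beside 9.27% of all genes, with 2 at an unadjusted p under 0.05 (Erbb3 and Tgfa), and DESeq2 and limma also called 0. Scaled to library totals, or with only these 2 groups in the fit, 1 was called (Erbb3).

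With etomoxir no member passed the test at either time. At 24 h edgeR called 0 of 9 against untreated resection, beside 2.42% of all genes, with 4 at an unadjusted p under 0.05, and DESeq2 and limma called 0. These 4 were Tgfb1, Erbb3, Hbegf and Met. Tgfb1 was at 1.90, 1.03, 0.823 and 1.37 FPKM in PHx24_ETO, and 3 of the 4 livers lay below the lowest PHx24 liver. Its log2 fold change was -0.80 (SE 0.27, edgeR adjusted p = 0.104), and without PHx24_ETO 1 it was -1.06 (edgeR adjusted p = 0.0268). Erbb3 was at 12.8, 18.1, 17.1 and 18.5 FPKM, with 3 of 4 livers above every PHx24 liver. Its difference on the log2 scale was 0.48 (SE 0.16, edgeR adjusted p = 0.107), or 0.59 without PHx24_ETO 1 (edgeR adjusted p = 0.0342). Met was at 7.46, 10.4, 7.41 and 7.89 FPKM (0.26, SE 0.12, edgeR adjusted p = 0.239). At 48 h edgeR called 0 of 9, beside 0.142% of all genes, with 0 at an unadjusted p under 0.05, and DESeq2 and limma called 0. The difference between the etomoxir effects at the 2 times was called for 0 of 9 by edgeR, DESeq2 and limma, beside 0.0129% of all genes, with 1 (Hbegf) at an unadjusted p under 0.05.

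Kupffer cells and other macrophages are a known source of Tgfb1. The summed FPKM of 10 of their markers was 98.2 to 138 in PHx24_ETO against 134 to 248 in PHx24, with a median log2 fold change of -0.87. Of the 10, 1 was called lower and 0 higher, beside 2.42% of all genes called in either direction. None of the 10 was at 0. At 48 h the ranges were 115 to 242 with and 83.3 to 250 without etomoxir. The part of these cells in the level of Tgfb1 was not tested.

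A single etomoxir liver, PHx24_ETO 2, stood apart in several ligands. Its Hbegf was 6.04 FPKM (235 counts), while PHx24_ETO 1, 3 and 4 had 0.670, 0.231 and 0.114. With this library the log2 fold change of Hbegf was 1.60 (SE 0.67, edgeR adjusted p = 0.187), and without it -0.78. The same liver had the highest Tgfa (8.10 FPKM), Areg (0.402) and Met (10.4) of its group, and also the highest Btc (3.48), Nrg1 (0.477) and Nrg4 (12.2), the last against 2.0 to 2.05 in the other 3. Its Egfr, at 20.6 FPKM, was the lowest of the group, and its Hgfac, at 27.3, too. The call of Nrg4 with etomoxir at 24 h (1.71, SE 0.34, edgeR adjusted p = 0.011) was lost without this library (0.52, edgeR adjusted p = 0.179). In PHx24_ETO 2 Tgfa made up 44.6% of the summed EGFR ligand FPKM, the lowest share of the group, where the median was 82.1%. The same library had the highest sum of 8 adipocyte and mesothelial markers of its group, 165 FPKM against 14.1 to 17.8 in the other 3, with Lep at 0 in all 4 and 0 of 7 tested markers called with etomoxir at 24 h. Their part in the ligand levels was not tested. Over all 15473 genes this library lay far above the other 3 of its group in 5.94% and far below in 2.2%.

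**Figure D3:**
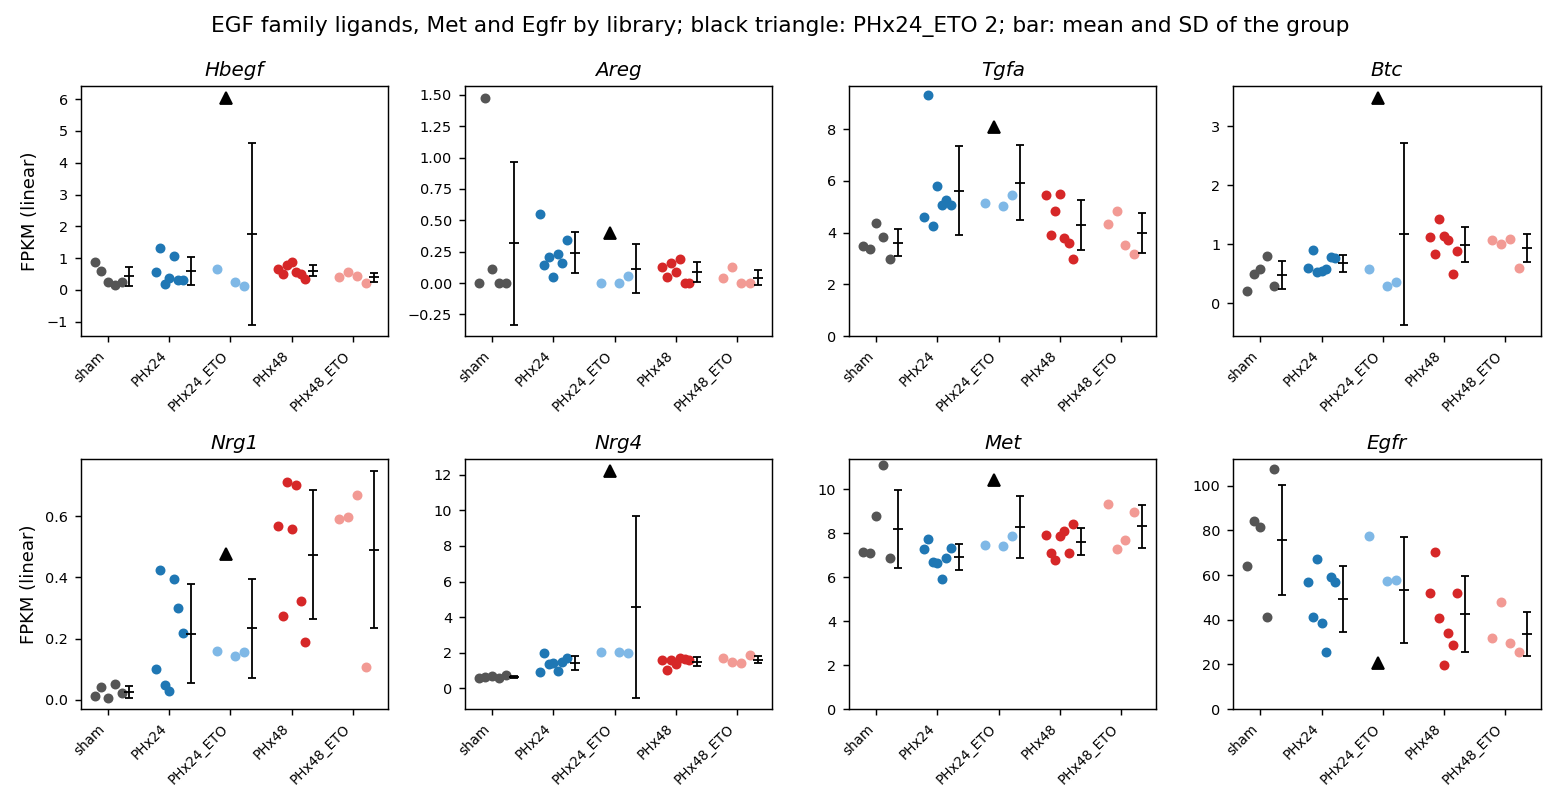
FPKM on linear axes of 6 EGF family ligands, Met and Egfr in each library by group; the black triangle is PHx24_ETO 2 and the bars are group means with SD. The triangle stands at 6.04 FPKM for Hbegf and 12.2 for Nrg4, above every other library of all groups, and at 20.6 FPKM for Egfr, the lowest of its group.

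Shedding releases the EGF family ligands from the membrane. Of 8 genes of ligand shedding, 2 rose at 24 h and 5 at 48 h, and 0 fell (median log2 fold change 0.18 and 0.33). The list holds proteases, their partners and also an inhibitor of such proteases, so a rise in it need not mean more release. Over all genes 15.0% rose at 24 h and 16.1% at 48 h. Rhbdf1 and Rhbdf2, the partners that carry the shedding protease ADAM17 to the cell surface, rose from 1.72 ± 0.466 and 2.61 ± 0.334 FPKM in sham to 2.90 ± 0.640 and 4.99 ± 2.09 in PHx24. The log2 fold change of Rhbdf1 was 0.75 at 24 h (edgeR adjusted p = 0.0188, lost without sham 5 at 0.0612) and 1.16 at 48 h (edgeR adjusted p = 0.000606), and that of Rhbdf2 was 0.93 and 0.99 (edgeR adjusted p = 0.0071 and 0.00428). Adam12, another membrane protease, rose by 1.56 at 48 h (edgeR adjusted p = 0.0284, lost without sham 2, 4 or 5 or PHx48 3, with p up to 0.0685). Without the 4 libraries 3 of 8 rose at 48 h.

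Of 25 adaptor and kinase genes downstream of the receptors 2 rose and 4 fell at 24 h, where 15.0% and 15.6% of all genes did, and 6 rose and 4 fell at 48 h, beside 16.1% and 16.2%, with medians of -0.03 and -0.09. Grb7, an adaptor that binds ERBB receptors, fell from 37.3 ± 5.37 FPKM in sham to 22.7 ± 2.11 in PHx24 and 25.4 ± 4.22 in PHx48 (-0.72 and -0.56, edgeR adjusted p = 0.000166 and 0.00194). Akt1 rose by 0.46 at 24 h (edgeR adjusted p = 0.00144), and the ERK pathway genes Hras and Mapk3 by 0.43 and 0.41 at 48 h (edgeR adjusted p = 0.000864 and 0.00803). Pik3ca, a PI3-kinase subunit, fell by 0.41 at 24 h (edgeR adjusted p = 0.0052), which was lost when scaled to library totals (adjusted p = 0.133). From 24 h to 48 h Plcg1 fell by 0.42 and Shc1 and Grb2 rose by 0.29 and 0.22 (edgeR adjusted p = 0.0026, 0.0144 and 0.037), with the call of Grb2 lost without PHx24 5 or 6 or PHx48 3, 4, 5 or 7 (adjusted p up to 0.086) and that of Plcg1 lost under scaling to library totals (-0.30, adjusted p = 0.0768).

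Genes known to be induced by ERK, the kinase below both receptors, were higher in part. Of 15 tested, 5 rose and 0 fell at 24 h (median log2 fold change 0.88), and 3 rose and 0 fell at 48 h (0.36). Over all genes 15.0% and 16.1% rose. Ccnd1, cyclin D1, went from 4.76 ± 2.57 FPKM in sham to 41.4 ± 9.06 in PHx24 and 32.2 ± 12 in PHx48, rises of 3.12 and 2.76 (edgeR adjusted p = 5.79e-07 and 1.2e-06). Exons of other genes overlap those of Ccnd1 and Jun, and also those of Klkb1, Nrg1, Erbb2, Plcg1, Lrig1, Thbs1, Itgav and Fn1. Ier3 rose by 2.53 at 24 h (edgeR adjusted p = 0.00493), and Jun by 1.16 and 1.8 (edgeR adjusted p = 0.00778 and 0.000157). Egr1 rose by 1.59 at 48 h (edgeR adjusted p = 0.0325), a call lost without PHx48 1 or sham 1, 2 or 3 (adjusted p up to 0.0833). Of 20 feedback inhibitors of receptor signalling 2 rose and 0 fell at 24 h, beside 15.0% and 15.6% of all genes. At 48 h 1 of them rose and 1 fell, beside 16.1% and 16.2%. The ERK phosphatase Dusp6, which is also in the ERK list, rose by 1.14 at 24 h (edgeR adjusted p = 0.00233), from 11.1 ± 4.78 to 24.5 ± 4.96 FPKM. At 48 h Spred1 rose by 0.49 and Spry4 fell by 0.82 (edgeR adjusted p = 0.0113 and 0.0214), the latter lost without sham 1 (adjusted p = 0.0777). Scaled to library totals, 7 of the 20 rose at 48 h, as did 4628 of all 15473 genes. From 24 h to 48 h Lrig1, a negative regulator of ERBB receptors, rose by 0.39 (edgeR adjusted p = 0.044), lost without PHx24 1, 3, 5, 6 or 7 or PHx48 1, 2, 4, 5 or 7 (adjusted p up to 0.10).

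Around Tgfb1, of 19 genes of TGF-beta ligands, activation and receptors 3 rose and 2 fell at 24 h, and 2 rose and 1 fell at 48 h (medians -0.23 and -0.10). Of all genes, 15.0% rose and 15.6% fell at 24 h, and 16.1% rose and 16.2% fell at 48 h. Ltbp4, which holds latent TGF-beta in the matrix, fell by 1.16 and 1.08 (edgeR adjusted p = 6.06e-05 and 0.000116). Lrrc32, which holds it at the cell surface, rose by 0.97 at 24 h (edgeR adjusted p = 0.00123) and fell by 0.82 from 24 h to 48 h (edgeR adjusted p = 0.00645). Thbs1, an activator of latent TGF-beta, rose by 1.64 at 24 h (edgeR adjusted p = 0.0436), lost without PHx24 1, 2 or 7 or sham 3, 4 or 5 (adjusted p up to 0.126). Tgfbr2 and Itgav rose by 0.76 and 0.44 at 48 h (edgeR adjusted p = 0.0309 and 0.0276), Tgfbr2 lost without PHx48 5 or sham 3, 4 or 5 (adjusted p up to 0.078) and Itgav without PHx48 1 or sham 2, 3 or 5 (adjusted p up to 0.0682). Of 16 genes of TGF-beta signalling and its targets 4 rose and 3 fell at 24 h, and 4 rose and 1 fell at 48 h, beside the same shares of all genes. Fn1, fibronectin, rose by 0.67 at 24 h (edgeR adjusted p = 0.00427) and fell by 0.62 from 24 h to 48 h (edgeR adjusted p = 0.011). It was higher with etomoxir at 24 h (0.74, edgeR adjusted p = 0.0264), lost without PHx24 3, 4, 6 or 7 or PHx24_ETO 3 or 4 (adjusted p up to 0.108). The inhibitory Smad7 fell by 0.71 at 24 h and Smad6 by 0.56 at 48 h (the latter lost without sham 2, -0.45, edgeR adjusted p = 0.0557). Tgif1 and Col1a1, a collagen gene, rose by 0.68 and 1.17 at 48 h. The edgeR adjusted p of these 4 genes ran from 0.00942 to 0.0494, and Col1a1 was lost without PHx48 1, 2, 3 or 4 or sham 2, 3, 4 or 5 (adjusted p up to 0.11). Without the 4 libraries the calls of Smad7, Smad6, Tgif1 and Col1a1 were lost (adjusted p from 0.0646 to 0.0876), and so were all of the list that fell at 24 h.

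**Figure D4:**
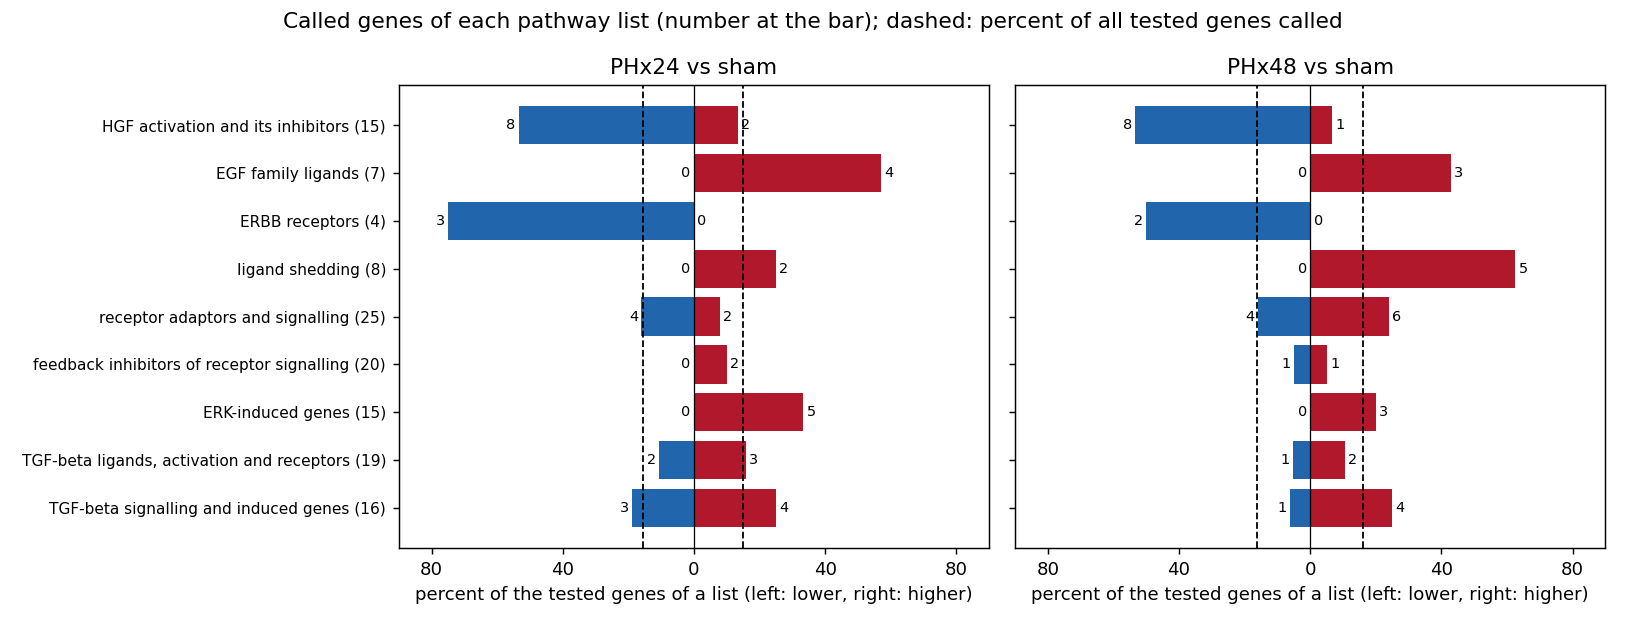
Percent of the tested genes of each pathway list that were called lower (blue, left) or higher (red, right) against sham at 24 h and 48 h, with the number of genes at each bar and the number tested in brackets. The dashed lines mark the share of all 15473 tested genes called in that direction (15.6% lower and 15.0% higher at 24 h, 16.2% and 16.1% at 48 h).

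The genes whose levels over the 27 libraries were most like those of a member were found by the root mean square difference of standardised log2(FPKM + 1), for each member called at least once. For Hgf they were Copg1 (0.46 SD) and Farsa (0.46), for Hgfac Gjb1 (0.40) and Bckdha (0.42), and for Tgfa Slc13a5 (0.45) and Pik3ap1 (0.50). For Erbb3 they were Zfp740 (0.50) and Wdr81 (0.55), for Egfr Nsd3 (0.62) and Cpn2 (0.65), and for Ereg Krt7 and Timp1 (0.65 each). The median gene lay 1.37 to 1.40 SD from a member. These pairs share library, depth and group, and the measure is a description without a test.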

How the data were processed

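RNA of 27 liver libraries was selected by its poly(A) tail and sequenced. The deposited table holds raw read counts per gene and FPKM for 54532 genes, per the file headers. The submitters' processing notes list the builds GRCm38 and mm10 and the tools DESeq2 1.20.0, featureCounts 1.5.0-p3, HISAT2 2.0.5, fastp and CASAVA 1.8. No source used here gives the annotation release or the strand setting. The deposited FPKM equal the authors' counts per kilobase and per unit of a library size proportional to a median-of-ratios size factor, so a library's FPKM depend on this scaling. All columns matched a sample label.

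Counts were tested with edgeR 4.0.16 in R 4.3.3, by the quasi-likelihood test with TMM factors. All 27 libraries entered 1 fit, for 15473 genes kept by filterByExpr (minimum count 10, smallest group 4). P-values were adjusted by Benjamini-Hochberg over those genes and called under 0.05. The SE is the log2 fold change over the root of F. The steps were tested on simulated data. Alternatives were DESeq2 1.42.0, limma 3.58.1 on log2(FPKM + 1) and log2(FPKM + 0.1), library totals without TMM factors, no filter beyond 1 count, a filter at 1 FPKM reached in 4 or more libraries, only the groups compared, the replicate number as a block, leaving out each library, and leaving out the 4 libraries with most muscle or pancreas RNA. PHx24_ETO 2, with 165 FPKM of adipocyte and mesothelial markers, was kept in this last alternative. Areg was tested by exact permutation.

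The members and lists were chosen with earlier results of these data known. Named genes are the 10 members, of each pathway list up to 3 called genes with the largest change per comparison, and for each called member the 2 most similar genes. Motif matches were counted in RefSeq promoter windows of GRCm38.p6. A window was found for 7 of the 10 members. In the lists, 1 gene is counted whose own values are not reported here.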

Additional observations from a re-analysis of the deposited data

Results flagged for a closer look

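In 16 genes (the 10 members and the other tested ligands and receptors of the family) and 5 groups, 80 sets of libraries were examined for a highest or lowest library whose gap to the next exceeds Dixon's 95% critical value, and 18 were found. Chance gives about 1 in 20 for independent values of a normal distribution, which FPKM need not follow. Over all tested genes a library was apart in 9.48% of such sets, from 5.71% in PHx48_ETO to 11.8% in PHx24_ETO, against 22.5% of the 80. Of these 18, 7 were PHx24_ETO 2, always as the highest of its 4 libraries: Met 10.4 FPKM (the others 7.41 to 7.89), Areg 0.402 (0 to 0.0557), Hbegf 6.04 (0.114 to 0.670), Tgfa 8.10 (5.02 to 5.47), Btc 3.48 (0.297 to 0.573), Nrg1 0.477 (0.141 to 0.159) and Nrg4 12.2 (2.0 to 2.05). By the same measure this library was apart and highest in 5.94% of all 15473 tested genes.

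Sham 1 was lowest for Hgfac at 55.5 FPKM (75.5 to 81.1) and highest for Egf at 0.424 (0.0541 to 0.137), and it was the library with most muscle RNA. Sham 2, with most pancreas RNA, was highest for Areg at 1.48 FPKM (0 to 0.113) and Erbb2 at 1.60 (0.132 to 0.510). This library also had the highest sums of lymphocyte markers (21.0 FPKM) and cholangiocyte markers (113 FPKM) in sham, against medians of 2.66 and 38.2. Sham 5 was lowest for Tgfb1 at 1.30 FPKM (1.81 to 2.0).

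PHx24 2 was highest for Tgfa at 9.33 FPKM (4.26 to 5.81), and PHx24 1 was highest for Egf at 0.328 (0.0455 to 0.108). PHx48 5 was lowest for Ereg at 0.0569 FPKM (0.122 to 0.162) and highest for Erbb4 at 0.333 (0.0879 to 0.192). PHx48_ETO 4 was lowest for Btc at 0.594 FPKM (1.01 to 1.09) and Nrg1 at 0.109 (0.590 to 0.669). For each library apart, the cause was not tested. Whether etomoxir acted differently at the 2 times was called for 0 members by edgeR, with 1 at an unadjusted p under 0.05, and for 0 by DESeq2.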

How the results depend on the processing

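Over the single genes named, 2118 alternatives kept direction and side of the threshold, 164 lost the call, 8 gained it and 27 reversed. The calls of Hgf and Hgfac at both times, and of Erbb3 and Tgfa at 24 h, held in all 21 alternatives run for each. Members called in PHx48 against sham numbered 3 under library totals, limma on log2(FPKM + 1) and without the 4 libraries with RNA of other tissues, 2 with no filter beyond 1 count, and 2 to 4 without 1 library, against 5. In PHx48 against PHx24 1 was called under library totals and with only the groups compared, and 0 to 1 without 1 library, against 0. With etomoxir at 24 h 0 to 2 were called without 1 library, against 0.

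With the 4 libraries left out, the log2 fold change turned to 0.065 for Erbb2 and 0.023 for Spint1 at 24 h, 0.14 for St14 at 48 h and -0.051 for Hbegf from 24 h to 48 h. Under library totals it turned to 0.10 for Hgf from 24 h to 48 h and 0.14 for Met at 48 h. Without 1 library at a time the reversals lay within these ranges: from 24 h to 48 h Ereg -0.29 to 0.12, Hbegf -0.11 to 0.38 and Hgf -0.085 to 0.012. Against sham they were Met -0.17 to 0.036 (48 h), Spint1 -2.62 to 0.21 (24 h) and St14 -2.21 to 0.39 (48 h). With etomoxir they were Egfr -0.13 to 0.38, Hbegf -0.78 to 1.99 and Tgfa -0.11 to 0.25 at 24 h, Hgf -0.024 to 0.22 at 48 h, and in the difference between the times Ereg -0.94 to 0.25 and Hbegf -2.58 to 0.18. The cause was not tested.

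Same-numbered libraries correlated above 0.1 in 13 of 45 pairs (median 0.0279), and differently numbered ones in 66 of 242 (median -0.0029). The numbers were therefore not taken to pair them. With the replicate block the members called were 5, 4, 0, 1, 0 and 0 for 24 h, 48 h, 48 h against 24 h, etomoxir at 24 h, at 48 h and their difference, and Tgfa with etomoxir at 24 h turned to -0.081. Library totals moved the median of all genes by 0.129, 0.244 and 0.115 for 24 h, 48 h and 48 h against 24 h, with 3151 genes higher and 1467 lower (2322 and 2417 with TMM factors), 4628 and 1116 (2497 and 2501), and 1481 and 317 (831 and 604). With etomoxir they were 101 and 158 (210 and 165) at 24 h and 13 and 14 (13 and 9) at 48 h. With etomoxir at 24 h 375 genes were called, 839 by DESeq2, 196 with no filter, 20 with only the groups compared and 128 to 1292 without 1 library. At 48 h 22 were called, 67 by DESeq2, 11 with no filter, 36 with the block and 0 to 19 without 1 library. The difference was called for 2 genes, 38 by DESeq2, 1 under library totals, 1 with the block and 0 to 211 without 1 library. Low counts limit Areg, Ereg and Hbegf, with as few as 0, 0 and 4 counts in a library.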
